A study of Mus musculus with 10 samples.

Results

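Cyclic nucleotide phosphodiesterases (PDEs) are the enzymes that break down the second messengers cAMP and cGMP. The 7 genes described here, Pde2a, Pde3b, Pde4a, Pde4b, Pde4d, Pde7a and Pde8a, were taken by gene symbol from the array annotation, which names 18193 genes. They were selected on measured values, the differences of signal between the groups compared here, so their values are a description, and where a count of them past a threshold is printed beside the share of all genes, it tests nothing. Together they have 22 of the 45101 probe sets of the array, and 16 other PDE genes are also on it.

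RNA was hybridised to 10 Affymetrix MOE430_2 arrays, which carry several short probes per probe set and give 1 signal for it. Splenic natural killer (NK) cells came from wild type C57Bl/6 mice, sorted as NK1.1+CD3- to a labelled purity above 99%. The 3 resting NK samples were lysed directly after the sort, and the 3 IL-15 NK samples were lysed after 24 h with 100 ng/mL recombinant mouse IL-15, a cytokine that activates NK cells and keeps them alive. The 4 bulk splenocyte chips hold unsorted resting spleen cells from 2 biological samples with 2 chips each; the strain of these mice is not given in the sources used here, nor is the age or number of mice behind any sample. All NK samples were amplified in 2 cycles and all splenocyte samples in 1 cycle, so amplification and cell population cannot be told apart. No NK culture without IL-15 was analysed here, so the 24 h of culture and the IL-15 cannot be told apart either.

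cAMP is made by adenylyl cyclases, which receptors coupled to the G protein Gs switch on, and cGMP is made by guanylyl cyclases. cAMP acts through protein kinase A (PKA) and EPAC, PKA reaches the nucleus through the CREB family of factors, and in NK cells and other lymphocytes a rise in cAMP is known to restrain activation and killing. PDEs end the signal: PDE2 hydrolyses both nucleotides and is stimulated by cGMP, PDE3 hydrolyses cAMP and is inhibited by cGMP, PDE4 is specific for cAMP and is blocked by rolipram, and PDE7 and PDE8 are specific for cAMP and insensitive to rolipram.

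CREB factors bind the palindrome TGACGTCA (CRE), or the short CRE motif TGACG, which reads CGTCA on the other strand and lies inside the palindrome. The RefSeq promoter table of assembly GRCm38.p6 holds 14 windows for 5 of the 7 genes, each from 250 bases before to 50 bases after a transcript start. Pde2a has 5 of these windows, Pde4b 4, Pde4a 3, and Pde4d and Pde8a 1 each. The short motif was found on either strand in 4 of the 14 windows, beside 20.8% of all 32851 windows in the table, and the full palindrome in 0 of the 14, beside 1.79% of all. The 4 matches are shown because CREB factors are the transcriptional end of the pathway that these enzymes limit. Each stretch is 120 bases on the plus strand, 5′ to 3′, with the match in capitals. The first matched base lies 15 bases after the start in Pde2a (chr7:101450430-101450549), and 50 bases before it in Pde4a (chr9:21183966-21184085), 34 before it in Pde4b (chr4:102421436-102421555) and 84 before it in Pde8a (chr7:81213096-81213215). A match describes the letters only and does not show that a factor binds there.
Pde2a: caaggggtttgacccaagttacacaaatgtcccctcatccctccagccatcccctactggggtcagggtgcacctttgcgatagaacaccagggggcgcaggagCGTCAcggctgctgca
Pde4a: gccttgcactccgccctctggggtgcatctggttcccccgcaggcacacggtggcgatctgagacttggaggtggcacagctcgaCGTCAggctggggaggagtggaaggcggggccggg
Pde4b: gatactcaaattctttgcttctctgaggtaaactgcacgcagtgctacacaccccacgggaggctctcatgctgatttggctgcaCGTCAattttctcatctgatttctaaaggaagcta
Pde8a: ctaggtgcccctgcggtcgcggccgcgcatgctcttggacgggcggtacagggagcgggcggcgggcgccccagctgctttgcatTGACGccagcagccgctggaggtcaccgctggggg

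Values are linear signals in the authors' scaling, which brought every array to the same trimmed mean. Signals under a floor of 179.8 units were treated as not measured above background and were set to it before log2 was taken. Between 57.8% and 61.7% of all 45101 probe sets lay above the floor in resting NK, 51.1% to 56.5% in IL-15 NK and 61.2% to 62.4% in splenocytes. All 12 NK marker genes on the array were above the floor on every array, and their summed signal was 682200 to 823540 in resting NK, 549540 to 631860 in IL-15 NK and 60466 to 80699 in splenocytes. Resting NK replicates 1 and 2 stood apart from the other NK arrays: the median B-cell marker was at 11.9% and 9.37% of its splenocyte mean there, at 0.509% in resting NK replicate 3, and at 0.337% to 0.578% in the IL-15 NK samples. Of 13 B-cell markers, 8 were above the floor in all resting NK samples and 3 in all IL-15 NK samples, and Cd79a, Cr2, Ebf1, H2-Ob, Ly6d and Ms4a1 were at the floor in every IL-15 NK sample. The summed B-cell signal was 13409 to 66486 in resting NK, 4985 to 7091 in IL-15 NK and 476680 to 604800 in splenocytes. The median of 12 T-cell markers was at 8.72% and 10.2% in resting NK replicates 1 and 2 and 2.30% in replicate 3, and at 2.24% to 3.65% in the IL-15 NK samples. The median of 14 macrophage and monocyte markers was at 5.09% to 9.01% among resting samples and at 0.600% to 1.58% among stimulated ones. The Gapdh control gave a 3′ over 5′ signal ratio of 7.0 in resting NK, 3.46 in IL-15 NK and 1.10 in splenocytes. The Actb control gave 3.69, 1.35 and 1.43, so resting NK was highest with both controls, while IL-15 NK was above splenocytes with Gapdh and not with Actb. The part of these differences in the results was not tested, except that values with resting NK replicate 3 alone are given where they bear on a gene.

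Of the 22 PDE probe sets, 16 were above the floor on all 10 arrays: 3 of 3 for Pde2a, the single one for Pde3b, 3 of 6 for Pde4b, 1 of 2 for Pde4d, 7 of 7 for Pde7a and 1 of 2 for Pde8a. Pde4a, with 1 probe set, had none. Each gene is represented by its brightest probe set, the one highest in mean log2 signal over the 10 arrays, and the others are given beside it, because probe sets of 1 gene can read different transcripts or transcript ends. Signals are compared between groups for 1 probe set at a time, never between genes. In bulk samples, fewer cells expressing a gene and less RNA of it per cell cannot be told apart.

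**Figure D1:**
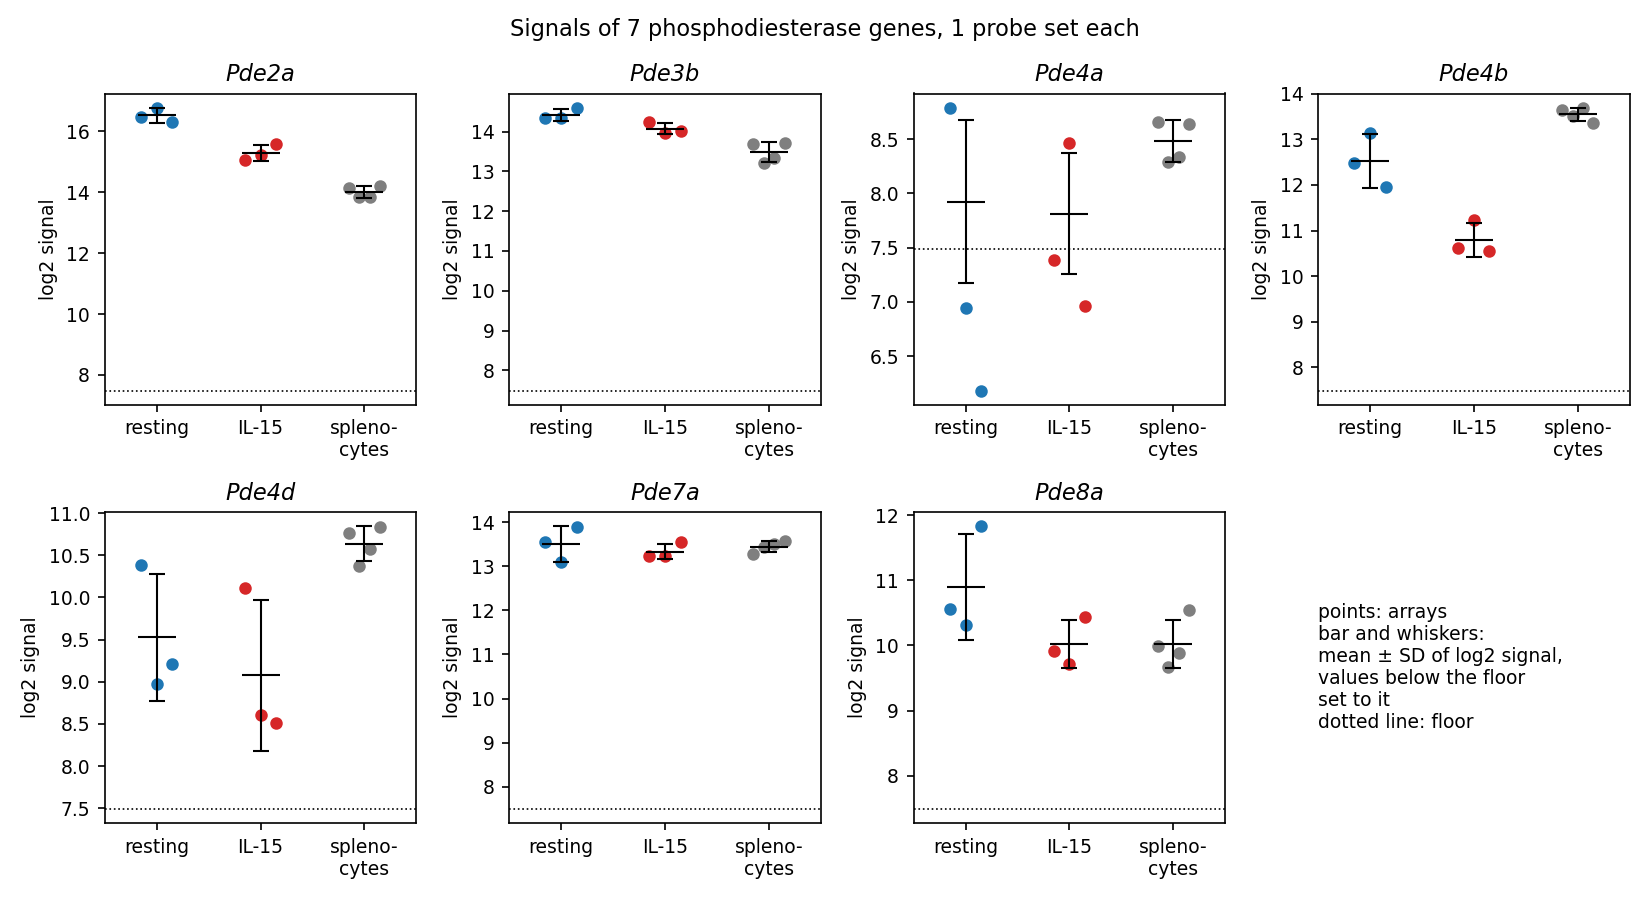
Signal of the representative probe set of each of the 7 PDE genes on each of the 10 arrays, by group, on a logarithmic axis in scaled signal units. Each point is 1 array, horizontal bars are geometric means of the floored values, and the dotted line is the floor of 179.8 units; Pde2a runs from 111586 units in resting NK down to 14503 in splenocytes, and Pde4b runs from 13138 in splenocytes down to 1495 in IL-15 NK.

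Pde2a, the cGMP-stimulated enzyme that hydrolyses both nucleotides, was highest in resting NK cells, intermediate after IL-15 and lowest in splenocytes. Its representative probe set, 1447707_s_at, gave 89835, 111586 and 81264 units in resting NK replicates 1 to 3. It gave 33909, 38053 and 48839 units in IL-15 NK and 17976, 14728, 14503 and 18930 units on the splenocyte chips. The 3 groups did not overlap. The mean log2 signal was 16.51 ± 0.23 (SD, n = 3) in resting NK, 15.28 ± 0.27 (SD, n = 3) in IL-15 NK and 14.00 ± 0.20 (SD, 4 chips) in splenocytes. On the log2 scale the difference was -1.23 ± 0.20 (SE) for IL-15 NK minus resting NK, which is 2.35-fold, and the resting NK mean was 2.51 ± 0.21 above the splenocyte mean, a 5.69-fold difference. IL-15 NK cells were still 1.28 ± 0.21 above splenocytes, a 2.42-fold difference. With resting NK replicate 3 as the only resting sample, IL-15 NK minus resting NK was -1.03.

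The other Pde2a probe sets also had their highest mean in resting NK, but they did not share 1 order of the other groups. Probe set 1452202_at gave 8828, 8769 and 6155 units in resting NK and 2095, 2992 and 2802 in IL-15 NK. On splenocyte chips it gave 2802, 3211, 3140 and 3257 units, which overlap the IL-15 NK signals. Its log2 difference was -1.59 ± 0.23 (SE) for IL-15 NK minus resting NK, 1.33 ± 0.23 for resting NK minus splenocytes and -0.25 ± 0.23 for IL-15 NK minus splenocytes. Probe set 1447708_x_at, whose probes may also match other sequences, overlapped between IL-15 NK (1729 to 2373 units), resting NK (1728 to 4364 units) and splenocytes (856 to 1952 units). So for Pde2a both probe sets that separated resting NK from IL-15 NK had the resting NK signals on top, while the order of IL-15 NK and splenocytes depended on the probe set.

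Pde3b, the cGMP-inhibited enzyme known for lowering cAMP downstream of insulin, followed the same order over a smaller range. Its only probe set, 1433694_at, gave 20632, 20778 and 24922 units in resting NK and 19349, 16119 and 16592 units in IL-15 NK. It gave 13308, 9446, 10398 and 13442 units on the splenocyte chips. The groups did not overlap, although the gap between IL-15 NK replicate 1 and resting NK replicate 1 was small beside the spread within each group. The log2 difference was -0.35 ± 0.17 (SE) for IL-15 NK minus resting NK, which is 1.27-fold. Resting NK lay 0.94 ± 0.18 above splenocytes, a 1.91-fold difference, and IL-15 NK lay 0.59 ± 0.18 above them, a 1.5-fold difference. With resting NK replicate 3 alone, IL-15 NK minus resting NK was -0.53.

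Pde4b, the PDE4 gene best known in immune cells, ran the other way between cell populations: it was highest in splenocytes, lower in resting NK and lowest after IL-15. Probe set 1442700_at gave 5708, 8994 and 3960 units in resting NK. It gave 1579, 2404 and 1495 units in IL-15 NK and 12846, 11615, 13138 and 10496 units on the splenocyte chips. No 2 groups overlapped, and resting NK replicate 3 was the lowest resting sample. The mean log2 signal was 12.52 ± 0.59 (SD, n = 3) in resting NK, 10.80 ± 0.37 (SD, n = 3) in IL-15 NK and 13.55 ± 0.15 (SD, 4 chips) in splenocytes. The log2 difference was -1.72 ± 0.31 (SE) for IL-15 NK minus resting NK, or 3.30-fold, and -2.75 ± 0.35 for IL-15 NK minus splenocytes, or 6.71-fold. For resting NK minus splenocytes it was -1.03 ± 0.34, or 2.04-fold.

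The size of the Pde4b difference depended on the probe set and on which resting sample was used. With resting NK replicate 3 alone, the resting sample with the lowest B-cell and the highest macrophage markers, the difference was -1.15 for IL-15 NK minus resting NK and -1.60 for resting NK minus splenocytes. Probe set 1422474_at gave 5204, 3501 and 4404 units in resting NK, 3261, 3389 and 2888 in IL-15 NK and 4887, 6387, 5417 and 5553 in splenocytes. Its IL-15 NK signals were all below the resting NK ones, with a log2 difference of -0.44 ± 0.21 (SE), but resting NK overlapped splenocytes. Probe set 1422473_at gave 2169, 1803 and 1062 units in resting NK, 750, 1162 and 879 in IL-15 NK and 4920, 5801, 4563 and 2257 in splenocytes. Its difference was -0.81 ± 0.32 between IL-15 NK and resting NK, whose signals overlapped, and -2.18 between IL-15 NK and splenocytes, whose signals did not. The remaining Pde4b probe sets were near or below the floor: 1444731_at exceeded it on all 4 splenocyte chips and on 1 of 6 NK arrays, 1446577_at on 1 splenocyte chip, and 1447718_at on no array.

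Pde4d, a second gene of the rolipram-sensitive family, varied more within the NK groups than between them. Probe set 1435280_at gave 1341, 504 and 592 units in resting NK, 1103, 389 and 366 in IL-15 NK, and 1743, 1324, 1531 and 1825 on the splenocyte chips. Replicate 1 was the highest sample in both NK groups. Resting and IL-15 NK overlapped, with a difference of -0.45 ± 0.49 (SE), and resting NK overlapped splenocytes, with a difference of -1.11 ± 0.57. All 3 IL-15 NK signals lay below all 4 splenocyte signals, a difference of -1.56 ± 0.57 or 2.95-fold. The other Pde4d probe set, 1459311_at, was below the floor on every array.

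Pde4a, the third PDE4 gene, was close to background in NK cells. Its probe set, 1421535_a_at, gave 443, 123 and 72.7 units in resting NK and 168, 353 and 125 units in IL-15 NK, so 1 of 3 arrays exceeded the floor in each group. The splenocyte chips gave 405, 313, 323 and 399 units, all above the floor. Both NK groups overlapped splenocytes, and the gene was not tested between IL-15 NK and resting NK because it was above the floor on too few arrays. No fold is given, since the NK means rest on the floor.

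**Figure D2:**
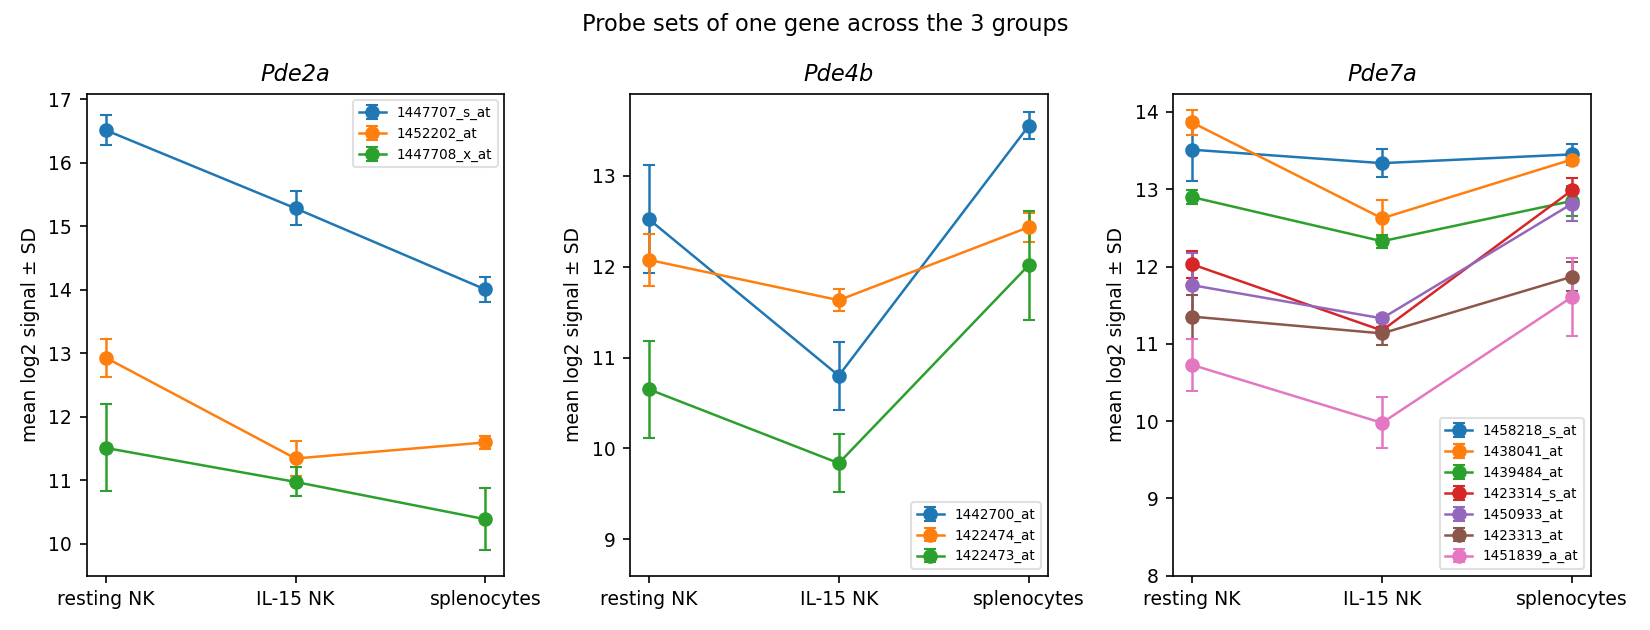
Mean log2 signal with SD (floored values) by group for probe sets of Pde2a, Pde4b and Pde7a. The groups are resting NK (n = 3), IL-15 NK (n = 3) and splenocytes (4 chips). Only probe sets above the floor on all arrays are drawn. The 7 probe sets of Pde7a do not share 1 order of the groups: 3 have a higher mean in resting NK than in splenocytes and 4 a lower one.

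Pde7a, a cAMP-specific enzyme of high affinity that was first studied in T cells, was above the floor with all 7 of its probe sets on every array, and these disagreed. The representative, 1458218_s_at, overlapped between all groups, with 11960, 8732 and 15236 units in resting NK, 9639, 9635 and 11935 in IL-15 NK and 9900, 11083, 11636 and 12299 in splenocytes. Its differences were -0.17 ± 0.22 (SE) for IL-15 NK minus resting NK and 0.06 ± 0.23 for resting NK minus splenocytes. Probe set 1438041_at gave 16669, 13425 and 14791 units in resting NK, 5264, 7182 and 6652 in IL-15 NK and 10272, 11252, 10941 and 10338 in splenocytes. With that probe set, IL-15 NK lay below both other groups with no overlap, with a difference of -1.24 ± 0.19 (SE) from resting NK, and resting NK lay above splenocytes by 0.48 ± 0.18. Probe set 1423314_s_at gave 4675, 3688 and 4226 units in resting NK, 2361, 2220 and 2344 in IL-15 NK and 8395, 9089, 8103 and 6997 in splenocytes. Here resting NK lay below splenocytes, with a difference of -0.96 ± 0.17, and IL-15 NK below resting NK, with one of -0.86 ± 0.20.

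Over the 7 probe sets of Pde7a, the IL-15 NK mean was below the resting NK mean in 7, with no overlap in 4, and the differences ran from -1.24 to -0.17. Between IL-15 NK and splenocytes the mean was lower in 7, with no overlap in 6. Between resting NK and splenocytes, 3 means were higher and 4 lower, from -1.05 to 0.48, and the separated ones were 1 higher and 3 lower. The Pde7a probe sets therefore gave 1 direction for both comparisons with IL-15 NK and no single direction for resting NK against splenocytes. The probe sets may read different 3′ ends or transcripts, and which of these each one reads was not tested.

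Pde8a, a cAMP-specific enzyme with very high affinity for its substrate, overlapped between all groups. Probe set 1418406_at gave 1510, 1276 and 3641 units in resting NK, 964, 839 and 1383 in IL-15 NK, and 1016, 815, 948 and 1491 on the splenocyte chips. The resting NK mean rested on replicate 3. Among resting samples, that one had the lowest median B-cell and T-cell marker and the highest macrophage (9.01% against 5.09% and 8.47%), neutrophil (4.17% against 1.70% and 0.987%) and erythroid marker (1.99% against 1.43% and 0.813%), in percent of the splenocyte mean. IL-15 NK minus resting NK was -0.88 ± 0.39 (SE); it was -0.42 without resting NK replicate 3 and -1.81 with that replicate alone. Between resting NK and splenocytes it was 0.88 ± 0.45, and 0.42 without that replicate. The IL-15 NK and splenocyte means were 10.02 ± 0.37 (SD, n = 3) and 10.02 ± 0.37 (SD, 4 chips). The other Pde8a probe set, 1418407_at, stayed within 265 units and was above the floor on all 3 resting NK arrays, 1 IL-15 NK array and no splenocyte chip.

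**Figure D3:**
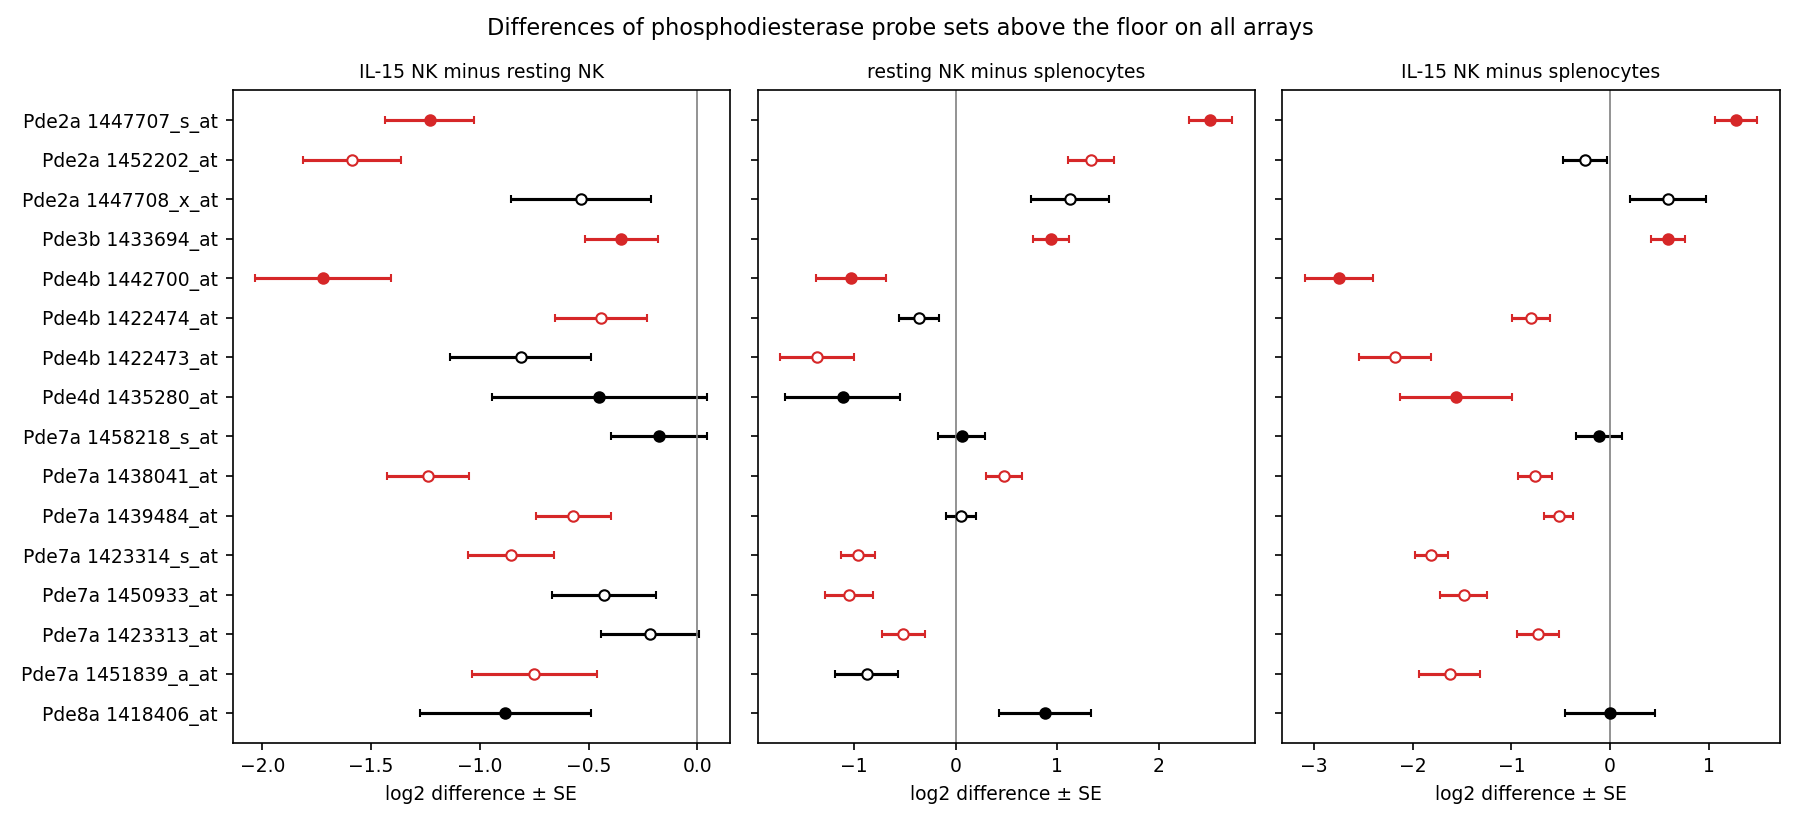
Differences of mean log2 signal (points) with SE (bars) of the PDE probe sets above the floor on all 10 arrays, in the 3 comparisons. Filled points are the representative probe sets and open points the others, red marks groups that do not overlap and black groups that do; the 16 differences between IL-15 NK and resting NK all lie below 0, from -1.72 to -0.17.

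Set side by side, the PDE probe sets differed in 1 direction between IL-15 NK and resting NK and in both directions against splenocytes. Of the 16 probe sets above the floor on all arrays, 16 had a lower mean after IL-15 than at rest, and in 9 the groups did not overlap. Of these 16, 7 belong to Pde7a. Among all 20980 single-gene probe sets tested, 21.7% lay apart in that direction and 18.8% in the opposite one. Those had to exceed the floor on 3 arrays only, a looser filter than that of the 16. The share of all probe sets with a lower mean was not counted. Between resting NK and splenocytes, 8 means were higher and 8 lower, with 4 apart above and 5 apart below, where 20.3% and 28.0% of all probe sets lay apart. Between IL-15 NK and splenocytes, 3 were higher and 13 lower, with 2 apart above and 10 apart below, where the shares were 23.8% and 31.5%. The probe sets of 1 gene are not independent, and the 7 genes were chosen with these differences in view, so these counts support nothing beyond themselves.

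By gene, the fits over all genes put 2 of the 6 PDE genes tested between IL-15 NK and resting NK, Pde2a and Pde4b, under a limma adjusted p of 0.05, both lower in IL-15 NK, where 12.1% of 11433 genes passed as lower and 14.2% as higher. The groups did not overlap for 3 of the 6, all lower, beside 21.6% of all genes apart as lower and 20.5% apart as higher. Between resting NK and splenocytes the count was 2 of 7 higher (Pde2a and Pde3b) and 1 lower (Pde4b), beside 17.1% and 21.5% of 12938 genes. The groups of those 3 did not overlap, beside 22.7% of all genes apart as higher and 27.0% as lower. Between IL-15 NK and splenocytes the count held the same 3 genes in the same directions, beside 20.8% and 23.5% of 12465 genes. There, 2 were apart as higher and 2 as lower (Pde4b and Pde4d), beside 27.8% and 29.8% of all genes. Since the choice of the genes used these differences, the counts are no test of them and nothing is read from them. The median difference of the PDE genes tested was -0.67 between IL-15 NK and resting NK, beside -0.09 over all genes; it was 0.06 beside -0.06 between resting NK and splenocytes, and -0.11 beside -0.10 between IL-15 NK and splenocytes. The 3 comparisons share samples pairwise, so they are not separate evidence. Averaging all probe sets of a gene moved the Pde4b difference to -0.51 for IL-15 NK minus resting NK, and leaving out resting NK replicate 3 moved it to -0.74 for resting NK minus splenocytes. Quantile normalization moved the Pde3b difference between IL-15 NK and splenocytes from 0.59 to 0.39. That Pde3b call held under 13 of 17 alternatives, with losses under quantile normalization and without IL-15 NK replicate 1 or 3. The Pde4b call held under 12 of 18 for resting NK minus splenocytes, with losses including those without resting NK replicate 1 or 3. Between the NK groups it held under 15 of 17. The remaining calls of Pde2a, Pde3b and Pde4b held under all alternatives.

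The genes around the PDEs, which are not members of the chosen set, were tested with the fits over all genes. The lists name 98 genes, of which 84 are on the array. Among those named below, Pde5a, Adcy5 and Prkaca are represented by _x_at probe sets, whose probes may also match other sequences. Between IL-15 NK and resting NK, 48 were tested: 2 were higher and 10 lower after IL-15 at an adjusted p of limma under 0.05, and 36 did not pass, beside the 14.2% of all genes higher and 12.1% lower. Of these, 1 higher and 6 lower were above the floor on all 6 arrays. A gene above the floor in 1 group only enters the test through that group and had to differ, which holds for 2 of the 10 lower ones. Without resting NK replicate 1 the count was 5, and without IL-15 NK replicate 1, 2 or 3 it was 8, 7 or 5. With resting NK replicate 3 as the only resting sample it was 9, of which 2 were higher. Against splenocytes, 13 of 60 genes were higher and 14 lower in resting NK, near the shares of all genes (17.1% and 21.5%). In IL-15 NK 6 of 57 were higher and 23 lower, beside 20.8% and 23.5% of all genes. Of the lower ones, 4 of 14 and 6 of 23 were at the floor on every NK array of the comparison.

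Among the 16 other PDE genes, only Pde1b and Pde6d were above the floor on all 10 arrays, and Pde6a, Pde6b, Pde6c and Pde9a were below it on all. Between IL-15 NK and resting NK 6 were tested, and 3 passed as lower after IL-15. Pde5a, a cGMP-specific enzyme, exceeded the floor on 3 of 3 resting and 0 of 3 stimulated arrays. It entered the test only through the resting arrays, so its p is not given; its signal after IL-15 was at least 2.82-fold lower. Pde1c, a calcium-calmodulin-dependent enzyme, and Pde6h, a subunit of the photoreceptor enzyme, exceeded the floor on 3 of 3 resting and 1 of 3 stimulated arrays. With most stimulated arrays at the floor, both entered the test through the resting arrays, so their p is not given. The Pde1c difference was -1.12. With the floor at the 25th percentile the brightest probe set was chosen again, and the difference was 0.22. With the same probe set a lower floor could not raise the difference, since all 3 resting arrays already exceeded the floor. Pde1c passed under 9 of the 15 alternatives that tested it. Pde6h differed by -0.89 and passed under 7 of 15. For both, the call was lost when every gene was tested, without resting NK replicate 1, and without IL-15 NK replicate 2 or 3, and for Pde6h also without resting NK replicate 3 or IL-15 NK replicate 1. Pde6d, a subunit that also carries prenylated proteins, was 2.54-fold lower in IL-15 NK than in splenocytes (-1.34, limma adjusted p 0.0097), and Pde1b 2.06-fold lower (-1.04, limma adjusted p 0.035). The Pde1b call held under 13 of 17 alternatives. Its losses included those without IL-15 NK replicate 1 (-0.79) or 2 (-1.06), and under quantile normalization (-0.58).

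On the side of synthesis, 1 of 5 adenylyl cyclases tested between IL-15 NK and resting NK passed. Adcy7, a cyclase known from blood cells, had a mean log2 signal of 15.67 ± 0.15 (SD, n = 3) at rest and 14.99 ± 0.09 (SD, n = 3) after IL-15, a 1.59-fold fall (limma adjusted p 0.014) that did not pass without IL-15 NK replicate 1 or 3 (both -0.65). Adcy7 was 1.90-fold higher in resting NK than in splenocytes (limma adjusted p 0.0020); the difference fell from 0.93 to 0.30 and did not pass when all its probe sets were averaged. Adcy3 was higher than in splenocytes in both resting NK (2.31-fold, limma adjusted p 0.025) and IL-15 NK (2.19-fold, limma adjusted p 0.029). These Adcy3 calls held under 13 of 18 and 13 of 17 alternatives: they were lost without resting NK replicate 1 (0.997) or 3 (1.07) and without IL-15 NK replicate 1 (0.96) or 2 (1.17), and averaging all probe sets left differences of 0.46 and 0.25. Adcy6 was lower in both, by at least 6.11-fold in resting NK and at least 4.31-fold in IL-15 NK, and Adcy5 was 4.76-fold lower in IL-15 NK (-2.25, limma adjusted p 0.040). The Adcy5 call held under 12 of 17 alternatives and was lost without IL-15 NK replicate 2 (-1.91) or 3 (-2.01) and with all probe sets averaged (-0.65). Of the guanylyl cyclases only Gucy1b1, a subunit of the nitric oxide receptor, was tested between the NK groups; it exceeded the floor on all resting and no stimulated arrays, so it entered the test only through the resting ones and its p is not given. Its resting NK mean was 8.38 ± 0.48 (SD, n = 3), against a floor of 7.49 in log2.

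Of the receptors and G proteins that switch the cyclases, few passed between the NK groups. Ptger4, the EP4 receptor for prostaglandin E2, stood furthest above splenocytes of the 7 receptors tested: its mean log2 signal was 14.96 ± 0.21 (SD, n = 3) in resting NK, 14.74 ± 0.08 (SD, n = 3) in IL-15 NK and 12.69 ± 0.18 (SD, 4 chips) in splenocytes. That made it 4.81-fold higher in resting NK (limma adjusted p 2.3e-05) and 4.12-fold higher in IL-15 NK (limma adjusted p 3.5e-05). Its difference between the NK groups, -0.22 ± 0.17 (SE), did not pass (limma adjusted p 0.38). Gpr65, an acid-sensing receptor, fell 1.79-fold after IL-15 (-0.84, limma adjusted p 0.018). That call was lost when every gene was tested, without resting NK replicate 1 (-0.82) or 3 (-0.74) and without IL-15 NK replicate 2 (-0.66). Vipr1, a receptor for vasoactive intestinal peptide, was at the floor on all 3 resting NK arrays and above it on all 4 splenocyte chips, at least 3.59-fold lower in resting NK; it entered that test only through the splenocytes, so its p is not given. None of 5 G protein alpha genes tested passed between the NK groups by limma at an adjusted p of 0.05, and 0 had an unadjusted p under 0.05: Gnas, which encodes Gs, differed by 0.14 (limma adjusted p 0.70) and Gnai3, of the inhibitory class, by 0.08 (limma adjusted p 0.78). Gnai3 was 2.11-fold higher in resting NK (limma adjusted p 0.0015) and 2.23-fold higher in IL-15 NK (limma adjusted p 0.00089) than in splenocytes. Gnas was 1.64-fold lower in resting NK than in splenocytes (-0.71, limma adjusted p 0.0496), a call that held under 9 of 18 alternatives.

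Among the 7 PKA subunits and inhibitors tested between the NK groups, 1 passed. Prkar2b, a regulatory subunit, exceeded the floor on 1 of 3 resting and 3 of 3 stimulated arrays. It entered the test through the stimulated arrays, so its p is not given. It was at least 3.14-fold higher after IL-15 (1.65). That bound holds for the floor used: with the floor at the 55th percentile the Prkar2b difference was 0.03, too few arrays exceeded it for a test, and the call was also lost when every gene was tested. Prkar2b remained lower in both NK groups than in splenocytes, by at least 11.95-fold in resting NK and by 3.81-fold in IL-15 NK (limma adjusted p 0.0023). Against resting NK it entered the test through the splenocyte chips, so that p is not given. Of the 8 tested against splenocytes, 2 were higher and 3 lower in each NK group. The higher ones, named after their values were seen, were the catalytic subunit Prkaca, 3.57-fold in resting NK (limma adjusted p 0.00029) and 2.80-fold in IL-15 NK (limma adjusted p 0.00077), and the regulatory subunit Prkar2a, 6.02-fold (limma adjusted p 0.00017) and 9.36-fold (limma adjusted p 5.2e-05). Averaging all probe sets lowered the Prkaca differences to 0.83 and 0.57 and the Prkar2a differences to 1.07 and 1.43, which still passed. The lower ones were Prkar2b and the PKA inhibitors Pkib and Pkig: Pkib by at least 9.60-fold in resting and at least 9.99-fold in IL-15 NK, and Pkig by 7.28-fold and 11.96-fold. B-cell and macrophage markers were also far lower in NK cells than in splenocytes, and their part in these differences was not tested. Of 11 A-kinase anchoring proteins, which hold PKA in place, 2 fell after IL-15: Akap10 by 2.23-fold (-1.16, limma adjusted p 0.0032) and Akap8l by 1.93-fold (-0.95, limma adjusted p 0.024). The Akap8l call held under 12 of 17 alternatives. Its losses included those without resting NK replicate 3 (-0.78) and without IL-15 NK replicate 1, 2 or 3 (-1.02 to -0.86). Akap12 was 5.37-fold lower in resting NK and 9.46-fold lower in IL-15 NK than in splenocytes. Neither of the tested EPAC and PKG genes (Rapgef3 and Prkg1) and neither efflux pump (Abcc4 and Abcc5) passed between the NK groups by limma, and 0 of these 4 genes had an unadjusted p under 0.05. Rapgef3 passed as lower than in splenocytes in both NK groups, by at least 1.83-fold in resting NK and at least 1.96-fold in IL-15 NK.

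At the end of the pathway, 1 of 5 CREB factors and coactivators rose after IL-15 and 2 fell. Crem, a CREB family gene that also gives rise to the cAMP-induced repressor ICER, had a mean log2 signal of 9.62 ± 0.39 (SD, n = 3) at rest and 11.58 ± 0.39 (SD, n = 3) after IL-15, a 3.90-fold rise (1.97 ± 0.30 SE, limma adjusted p 0.0011). The Crem rise passed under each of 17 alternative settings tried; it was 0.83 when all its probe sets were averaged and 2.33 with resting NK replicate 3 alone. The coactivator Crtc1 fell 3.14-fold (-1.65, limma adjusted p 0.017) and Crtc3 1.89-fold (-0.92, limma adjusted p 0.017), and both calls were lost when every gene was tested, without resting NK replicate 1 (-1.44 and -0.90) and without IL-15 NK replicate 3 (-1.21 and -0.91). The Crtc3 call held under 11 of 17 alternatives, and its losses also included that without IL-15 NK replicate 1 (-0.71). Of the 12 genes called, Crem, Akap10 and Adcy7 remained when every gene was tested. Crem was 2.06-fold higher in IL-15 NK (limma adjusted p 0.025) and 1.90-fold lower in resting NK (limma adjusted p 0.044) than in splenocytes; the latter difference was 0.011 when all its probe sets were averaged. The first of these calls held under 14 of 17 alternatives, and its losses included those without IL-15 NK replicate 1 (0.89) or 3 (0.98). The other held under 11 of 18, and its losses included those without resting NK replicate 2 (-0.90) or 3 (-0.74).

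**Figure D4:**
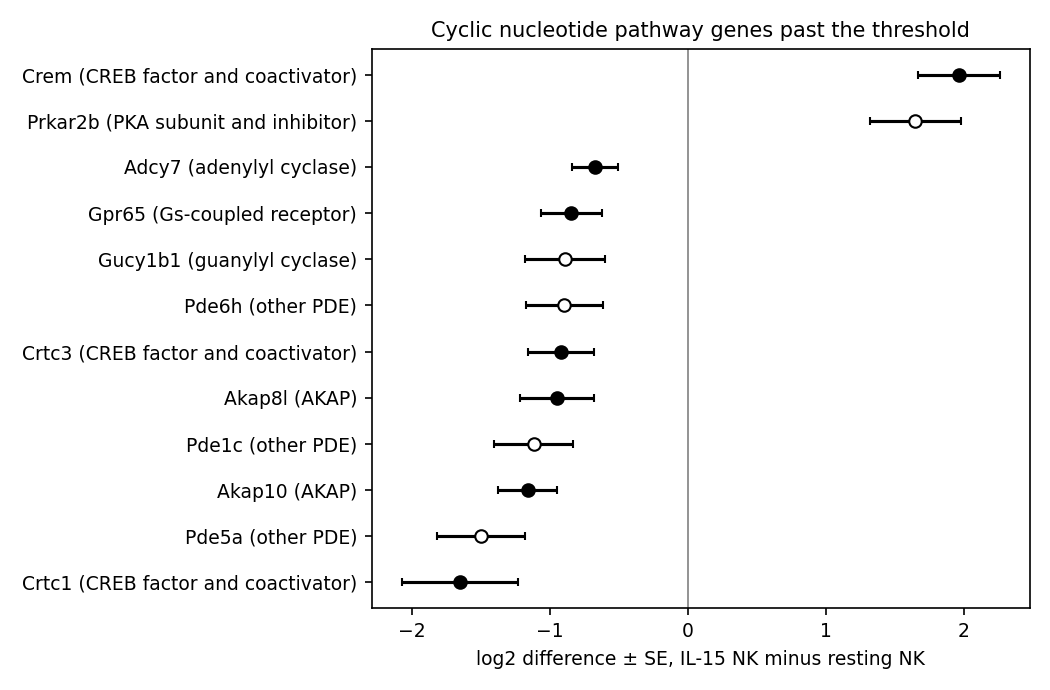
Log2 differences between IL-15 NK and resting NK (points) with SE (bars) of the genes around the PDEs that passed in this comparison. Each is labelled with its list, and named genes that did not pass are not shown. Open points mark differences that rest on floored arrays; Crem (1.97) and Prkar2b (1.65) lie highest and Crtc1 (-1.65) lowest.

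Genes whose pattern over the 10 arrays was most like that of a PDE gene were found by the root mean square difference of log2 signals, after each gene's own mean was subtracted, among 8480 genes above the floor on all arrays. Tmem127 (0.18) and Spata13 (0.21) were closest to Pde2a, where the median gene was at 1.12. Akap11 (0.11) and Hnrnpk (0.13) were closest to Pde3b (median 0.62), and Foxp1 (0.18) and Dleu2 (0.26) to Pde4b (median 1.30). Foxp1 had mean log2 signals of 13.46 in resting NK, 11.98 in IL-15 NK and 14.70 in splenocytes, the same order as Pde4b. Fscn1 (0.15) and Agrn (0.27) were closest to Pde4d, Edem3 (0.12) and Skap2 (0.13) to Pde7a, Cdc14b (0.24) and L1cam (0.27) to Pde8a, and, among 8481 genes, Nup188 (0.25) and Usf2 (0.28) to Pde4a, whose NK values mostly lie at the floor. These distances describe 10 arrays in 3 groups.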

How the data were processed

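Each array's deposited values are linear intensities, 1 for every probe set, and the submitters' processing notes name GCOS 1.4. How probes were summarised is not given in the sources used here. On every array the intensities averaged 1500.01 after 2% was trimmed at each end, so the authors had scaled them and they were used as they stand; a change in the total RNA of a cell cannot be seen in them.

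Each array's 40th percentile was taken, and their median, 179.85 units, served as the floor. Probe sets were named by GEO's platform annotation: 34945 had 1 gene symbol, 932 several and 9160 none, and 64 controls were left out; 34741 matched RefSeq (GRCm38.p6) by Entrez ID. A gene entered a comparison when 3 or more of the arrays compared exceeded the floor. limma 3.58.1 in R 4.3.3 was used (lmFit and trended eBayes, Benjamini-Hochberg adjustment across all genes tested, threshold 0.05, 2-sided). The 6 NK arrays were fitted without a replicate block. For splenocyte comparisons all 3 groups shared 1 variance, and the 4 chips were averaged in pairs under each of 3 possible pairings, with the largest p and SE kept. No 2 arrays held identical values. The labels call the NK samples biological replicates but do not say how many mice each held. The scripts were tested on simulated data.

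The 7 PDE genes and the pathway lists were chosen with earlier results of these data known. Of each pathway list, genes were named by a rule: up to 4 past the threshold with the largest difference after IL-15, or the 2 brightest tested where fewer than 2 passed, and up to 2 per splenocyte comparison. Some results that passed against splenocytes are not described above. Npr2, Akap2 and Akap7 were lower in both NK groups, and Gucy1b1 and Vipr1 were lower in IL-15 NK. Pde5a, Pde1c and Crtc3 were higher in resting NK. Several of these had 1 group mostly at the floor. For each PDE gene the 2 most similar named genes above the floor on all arrays are given. Alternatives covered the floor, the filter, normalization, probe set choice, the variance model, the replicate block, the chips and each array left out. Those that changed the floor or the normalization chose each gene's brightest probe set again. With a splenocyte chip left out, the remaining chips were fitted singly.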

Additional observations from a re-analysis of the deposited data

Results flagged for a closer look

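In splenocytes, 1 chip stood far from the other 3 for 3 of the 49 probe sets examined for this. About 1 in 20 groups of 4 independent values is marked by chance. The 4 chips come from 2 biological samples, so that rate need not hold for them. Ptger4, the EP4 receptor, gave 7986 units on splenocyte replicate 4 and 6000 to 6329 on the others. Akap8l, an A-kinase anchoring protein, gave 1691 units on splenocyte replicate 1 and 2489 to 2575 on the others. Abcc4, a cyclic nucleotide efflux pump, gave 1359 units on splenocyte replicate 2 and 1947 to 2015 on the others. None of these genes is a PDE.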

How the results depend on the processing

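Between IL-15 NK and resting NK, 3003 genes passed. Testing every gene gave 1646 genes, 1 PDE gene (Pde2a) and 3 pathway genes, and testing every probe set singly gave 5004 probe sets. Leaving out 1 array gave 1963 (without IL-15 NK replicate 3) to 3241 genes, 2 to 3 PDE genes and 5 to 12 pathway genes. Against splenocytes, 4993 genes passed for resting NK and 5524 for IL-15 NK, and testing every probe set singly gave 9129 and 9797. Leaving out 1 array gave 4441 to 6008 and 4616 to 6454 genes, 2 to 4 PDE genes and 22 to 34 pathway genes in each. The upper ends came from leaving out a splenocyte chip. The remaining chips then entered singly and not averaged in pairs, although they come from 2 biological samples. Leaving out 1 NK array gave 4441 to 5188 and 4616 to 4997 genes. With the 4 chips as independent samples, 5 PDE genes passed for resting NK. These settings change how many features or samples are tested. Among named pathway genes that passed, the sign turned for Pde1c between the NK groups (0.22). This was with the floor at the 25th percentile, where another probe set represented the gene. The sign also turned for Gnas (0.31) and Crem (0.011) between resting NK and splenocytes with all probe sets of a gene averaged. For Gnas and Crem the cause was not tested. Quantile normalization moved the median of all genes from -0.10 to 0.11 for IL-15 NK and from -0.06 to 0.05 for resting NK against splenocytes. Of the values of named pathway genes, 318 of 374, 342 of 396 and 346 of 374 stayed on the same side of the threshold in the 3 comparisons. An untested gene counted as not passing there, and a turn of sign counted against a gene only where it passed.

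With the replicate number as a block, 3421 genes, 3 PDE genes (Pde8a added, lower) and 15 pathway genes passed between the NK groups. The series text speaks of pairs without tying numbers to animals. Same-numbered samples deviated together with correlations of 0.103, 0.281 and 0.0665, and samples of unlike number with -0.222 to 0.154. Resting NK replicates 1 and 2 were each closest to the IL-15 NK sample of their own number, while replicate 3 was closest to IL-15 NK replicate 1 (0.154). These values did not settle the pairing, and the numbers were not used to pair samples.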
